A study of Mus musculus with 6 samples.

Results

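The genes described here are 10 genes of the mTOR pathway and of translation control, *Mtor*, *Rptor*, *Rictor*, *Mlst8*, *Tsc1*, *Tsc2*, *Rheb*, *Rps6kb1*, *Larp1* and *Eif4ebp1*. They were chosen by name, and each was found as a row of its own among the 23698 gene rows counted in every library. SCCc are cultured squamous cell carcinoma cells, measured here by ribosome profiling (1 library) and by RNA-seq (2 libraries). These are keratinocytes from the back skin of newborn mice that carry Hras G12V and have lost Tgfbr2 (Tgfbr2 fl/fl KO), kept in culture to passages 10 to 15. Ribosome profiling sequences the mRNA fragments covered by ribosomes (footprints), RNA-seq measures the mRNA itself, and the ratio of both is the translational efficiency of a gene. Wild-type keratinocytes and the long-read libraries were not analysed here, so every value compares genes within SCCc and not SCCc with normal cells.

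mTOR is a kinase that couples growth factors, amino acids and energy to protein synthesis. With Raptor (*Rptor*) and mLST8 it forms mTORC1, which phosphorylates the S6 kinase (*Rps6kb1*) and the eIF4E-binding protein (*Eif4ebp1*), and with Rictor and mLST8 it forms mTORC2, which phosphorylates Akt. The small GTPase Rheb activates mTORC1, the TSC1 and TSC2 complex switches Rheb off, and LARP1 binds the 5′ terminal oligopyrimidine (TOP) motif of mRNAs such as those of ribosomal proteins, whose translation follows mTORC1 activity.

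The depth, as the sum of exon counts, was 3549555 for ribosome profiling, 10707930 for the first RNA-seq replicate (replicate 1) and 14003713 for replicate 2. On their coding sequences (CDS) the 10 genes held 2123 footprints, 0.0664% of all footprints on CDS. Their share of the RNA-seq exon counts was 0.113% in replicate 1 and 0.115% in replicate 2. Levels are given as RPKM, here the counts divided by the length of the counted region and by the library's sum of exon counts. The labels do not say whether the RNA-seq replicates came from separate cultures, so the spread between them may be technical. The ribosome profiling library had no replicate among those used here, so its 95% intervals cover counting error only. They treat every count as a separate fragment, so PCR copies of a fragment would make them too narrow. The study also used other ribosome profiling libraries of squamous cell carcinoma, which were not analysed here.

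The libraries carried the marker genes of keratinocytes. All 8 keratinocyte markers had an RNA-seq RPKM above 1 in both replicates, with *Krt5*, a keratin of basal cells, as the most abundant at 7965 and 9483. The summed RNA-seq RPKM of the 8 genes was 14390 in replicate 1 and 16420 in replicate 2. The 7 fibroblast markers summed to 9.98 and 15.6, with *Col3a1* highest and 0 footprints on 6 of the 7 genes, where a count of 0 allows up to 3 footprints. *Pdgfra* had 10 footprints. The 4 immune markers summed to 37.9 and 46.1, most of it from *Cd68* at 35.1 and 37.3, which also had 36.9 footprints on its CDS. *Lyz2* was at 2.71 and 8.56 with 0 footprints. The leukocyte marker *Ptprc* was at 0.0824 and 0.176 with 0 footprints, and *Cd3e* was at 0 in all 3 libraries. The 4 melanocyte markers summed to 5.25 and 5.65, mostly *Pmel*, with 2 footprints on *Pmel* and 4 on *Mitf*. In such bulk samples, fewer cells of a type and less RNA per cell cannot be told apart.

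The 5′ ends of the mRNAs are shown first, because a TOP motif at the 5′ end is the sequence through which LARP1 and mTORC1 act on an mRNA. A RefSeq transcription start on the GRCm38.p6 build was found for 9 of the 10 genes, without *Eif4ebp1*. The first 20 bases of the annotated mRNA are given for the kinase, for the LARP1 mRNA, for the GTPase and for the S6 kinase. The TOP mRNA of the S6 kinase substrate *Rps6* is added for contrast and was picked as a known example. Capitals mark the unbroken pyrimidines from the first base.
*Mtor* (chr4:148448582-148448601, + strand): TCCCTggcctagaagacagc
*Larp1* (chr11:58009064-58009083, + strand): gagccttctgcccggcgcgc
*Rheb* (chr5:24842342-24842361, - strand): CCgcgcccgccgccgtgctc
*Rps6kb1* (chr11:86544788-86544807, - strand): Tgaacttgaggagccagtct
*Rps6* (chr4:86857348-86857367, - strand): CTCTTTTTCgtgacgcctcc
A TOP motif was searched as C at the first base followed by at least 4 bases that are each C or T, on the strand of the gene. *Rps6* held it, with 9 pyrimidines, and 0 of the 9 genes did. *Mtor* opened with 5 pyrimidines, of which the first was T. Of all 32851 RefSeq starts in the table, 823 (2.51%) opened with the motif. In GENCODE M21, also on GRCm38, the motif was at the 5′ end of 0 transcripts with a full CDS of the 10 genes, while 4.49% of all genes compared had such a transcript. These matches describe the annotation, and the starts used in SCCc were not measured in these libraries.

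To compare translation, genes were kept when their RNA-seq RPKM was above 1 in both replicates, their mean normalised count over the 3 libraries was above 25, and their CDS was counted and carried footprints. In total 9863 genes passed, among them all 10 mTOR genes. Log2 translational efficiency compares the footprint level of the CDS with the exon level averaged over both RNA-seq replicates, as a log2 ratio of RPKM relative to the median of these 9863 genes. Across them it had an SD of 1.45. The 10 genes had a median of -0.38, with 3 genes above and 7 below the median of all genes. None of the 10 was above 1 (0 genes, 2-fold higher), against 20.8% of all genes, and 3 of the 10 were below -1, against 21.1% of all genes, so the share of low values was near that of all genes. The 3 genes were *Mtor*, *Tsc1* and *Tsc2*.

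**Figure D1:**
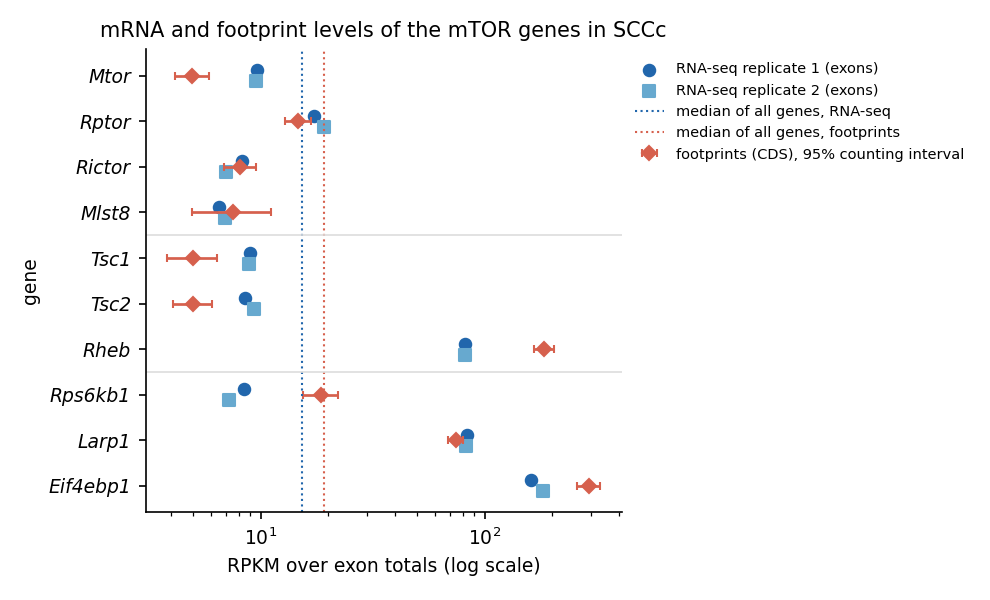
Levels of the 10 genes in SCCc as RPKM over exon totals on a log axis, with circles and squares for RNA-seq replicates 1 and 2 on exons and diamonds for footprints on the CDS with their 95% counting interval. Dotted lines mark the medians of all 9863 genes, 15.3 for RNA-seq and 19.1 for footprints, and *Rheb*, *Larp1* and *Eif4ebp1* lie above both.

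The mRNA of the kinase and of its complex partners was below the median level of all genes, except for *Rptor*. *Mtor*, the catalytic subunit of both complexes (chr4:148448611-148557683, + strand), had an RNA-seq RPKM of 9.65 in replicate 1 and 9.58 in replicate 2. *Rptor*, the subunit that recruits mTORC1 substrates (chr11:119602905-119899576, + strand), had 17.3 and 19.2. *Rictor*, the defining subunit of mTORC2 (chr15:6708379-6800401, + strand), had 8.30 and 7.01. The mRNA of *Mlst8*, a subunit of both complexes (chr17:24473551-24479078, - strand), was lowest of the 10 genes over exons at 6.50 and 6.95. The mRNA for Raptor was thus 1.79 and 2.00 times as abundant per length as that of the kinase in replicates 1 and 2, and 2.08 and 2.73 times that of Rictor. With RNA-seq counted over the CDS, *Rictor* was lower than *Mlst8*, at 7.25 and 6.61 against 7.925 and 8.311.

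Footprints on the subunits followed another order than their mRNAs. *Mtor* had 4.96 footprint RPKM (95% counting interval 4.16 to 5.87, from 135 footprints on 7647 nt of CDS), the lowest of the 10 genes. *Rptor* had 14.7 (12.8 to 16.9), *Rictor* 8.12 (6.87 to 9.54) and *Mlst8* 7.56 (4.93 to 11.1), the last from 25.8 footprints. Footprint density was 2.97 times as high on *Rptor* as on *Mtor* (2.37 to 3.70), and 1.64 times as high on *Rictor* as on *Mtor* (1.29 to 2.08), although *Rictor* mRNA was at 0.861 and 0.732 of *Mtor* mRNA in the replicates. For *Mlst8* over *Mtor* the ratio was 1.52 (0.966 to 2.35), an interval that includes 1. *Rictor* and *Mlst8* could not be told apart at this depth (ratio 1.07, 0.700 to 1.69).

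The log2 translational efficiency of *Mtor* was -1.30 ± 0.00 (SD from setting the same footprints against each of the 2 RNA-seq replicates), with a counting error of 0.13, at percentile 16.0 of all genes. It was -0.65 ± 0.12 for *Rptor*, -0.26 ± 0.16 for *Rictor* and -0.17 ± 0.08 for *Mlst8*, whose counting error of 0.29 does not set it apart from the median of all genes and which was at -0.97 without division by length. Of the 4 subunits only *Mtor* was past 2-fold, and it was not without division by length (-0.45) or relative to genes of similar CDS length (-0.35). When RNA-seq was counted over the CDS in place of exons, *Rictor* changed sign to 0.18, and relative to genes of similar CDS length it was at 0.53. Relative to the median of the 4829 genes with at least 100 counts in each library, *Rptor* was at -1.04, past 2-fold, against 15.7% of these genes. That change of median lowered the other genes alike, as with *Mtor* at -1.69. Relative to genes of similar CDS length *Rptor* was at -0.02.

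In the TSC and Rheb arm, the inhibitor and its target lay far apart. *Tsc1*, which stabilises the complex (chr2:28641228-28691167, + strand), had an RNA-seq RPKM of 8.94 and 8.86. *Tsc2*, its GTPase-activating subunit (chr17:24595816-24632630, - strand), had 8.51 and 9.30. *Rheb*, the GTPase they inactivate (chr5:24802823-24842624, - strand), had 82.0 and 82.2, at percentile 91.2 of all genes. The replicate ranges of *Tsc1* and *Tsc2* overlapped, so their mRNAs could not be ranked.

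Both TSC subunits also carried footprints at the same density. *Tsc1* had 4.99 footprint RPKM (3.83 to 6.41, from 61.7 footprints) and *Tsc2* 4.98 (4.04 to 6.08, from 97.6 footprints), with a ratio of 1.00 (0.717 to 1.39). *Rheb* had 185 (167 to 205, from 363 footprints), 37.1 times the density of *Tsc2* (29.5 to 46.8), where the mRNA ratio over exons was 9.64 and 8.83 in the replicates. Counted over the CDS, the mRNAs lay further apart, with an RNA-seq RPKM of 162.5 and 165.7 for *Rheb* against 9.10 and 10.02 for *Tsc2*. *Mtor*, *Tsc2* and *Tsc1* had the lowest footprint levels and could not be ordered among themselves, with a ratio of 1.00 for *Tsc2* over *Mtor* (0.768 to 1.32). Nor was *Mlst8*, next in order, separated from *Tsc1* at this depth (ratio 1.51, 0.923 to 2.44).

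Log2 translational efficiency was -1.18 ± 0.00 for *Tsc1* (counting error 0.19) and -1.18 ± 0.10 for *Tsc2* (counting error 0.15). It was 0.83 ± 0.01 for *Rheb* (counting error 0.08), at percentile 75.3 of all genes, and 0.18 relative to genes of similar CDS length. With RNA-seq counted over the CDS the values were -0.90 for *Tsc1*, -0.99 for *Tsc2* and 0.12 for *Rheb*, so neither TSC gene was then past 2-fold. Without division by length *Tsc1* was at -1.31 and *Tsc2* at -0.39. Annotated exons of *Tsc2* overlap those of *Pkd1* on the other strand by 693 nt, and those of *Mlst8* overlap *Bricd5* by 997 nt. *Rps6kb1* overlaps 155 nt of *Rnft1* and *Rptor* 84 nt of *Rptoros*, also on the other strand. Whether the counting used the strand is not given in the sources used here, and without it reads of such a pair cannot be told apart.

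The translation effectors spanned most of the range of the 10 genes. *Eif4ebp1*, whose protein holds eIF4E away from the cap-binding complex (chr8:27260329-27276674, + strand), had the highest mRNA level, with an RNA-seq RPKM of 161 and 183, at percentile 96.5 of all genes. *Larp1* (chr11:58009064-58062034, + strand) had 83.1 and 82.6, at percentile 91.3. *Rps6kb1*, the kinase of ribosomal protein S6 (chr11:86498871-86544805, - strand), had only 8.40 and 7.24, at percentile 28.0. Over exons the replicates of *Larp1* lay above those of *Rheb* without overlap, but the ratio of their means was 1.01. With RNA-seq counted over the CDS the order was reversed, with 162.5 and 165.7 for *Rheb* against 82.2 and 79.7 for *Larp1*.

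*Eif4ebp1* also had the highest footprint level, with 292 RPKM (260 to 328, from 292 footprints on 282 counted nt of CDS). *Larp1* had 74.3 (68.8 to 80.1, from 670 footprints, the most of the 10 genes), and *Rps6kb1* had 18.6 (15.4 to 22.2, from 121 footprints). *Rps6kb1* and *Rptor* were barely separated, with a footprint ratio of 1.26 (1.00 to 1.59), although *Rptor* mRNA was higher in both replicates. The paralogue *Rps6kb2* had the higher mRNA level of the S6 kinase pair at 23.1 and 25.5, but the lower footprint level at 11.8. The footprint ratio of *Rps6kb1* over *Rps6kb2* was 1.58 (1.15 to 2.18) and the mRNA ratio over exons 0.363 and 0.284. Their log2 translational efficiencies, 0.91 and -1.39 over exons, lay closer with RNA-seq over the CDS, at 0.19 and -1.10. *Eif4ebp1* carried 8.11 times the footprint density of its paralogue *Eif4ebp2* (5.92 to 11.3), with mRNA ratios over exons of 2.85 and 3.31. This pair also lay closer with RNA-seq over the CDS, at 0.11 and -0.75 against 0.42 and -0.97 over exons. *Eif4ebp2* was named after its value was seen.

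The log2 translational efficiency of *Rps6kb1* was 0.91 ± 0.14 (counting error 0.14), the highest of the 10 genes, at percentile 77.2 of all genes. Set against RNA-seq replicate 2 alone it was 1.01, past 2-fold, and against replicate 1 alone 0.81. *Eif4ebp1* was at 0.42 ± 0.14 (counting error 0.09) and *Larp1* at -0.50 ± 0.00 (counting error 0.06). In order of efficiency, *Rps6kb1* and *Rheb* were not separated by their counting errors, nor were *Mlst8*, *Rictor*, *Larp1* and *Rptor* each from the next, nor *Tsc1*, *Tsc2* and *Mtor*. *Rheb* was separated from *Eif4ebp1* by 0.41 (0.17 to 0.64), but not with RNA-seq over the CDS, where *Eif4ebp1* was at 0.11 and the difference was 0.01 (-0.23 to 0.25). *Eif4ebp1* and *Mlst8* were barely separated, by 0.6 (0.0 to 1.19), and not with RNA-seq over the CDS (0.26, -0.36 to 0.88). *Larp1* and *Rptor* were separated with RNA-seq over the CDS, by 0.25 (0.02 to 0.49). *Rptor* was separated from *Tsc1* by 0.53 (0.11 to 0.95), and by 0.47 (0.04 to 0.90) with RNA-seq over the CDS. Without division by length *Rps6kb1* was at -0.18 and *Eif4ebp1* at -0.01, and relative to genes of similar CDS length *Eif4ebp1* was at -0.74.

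**Figure D2:**
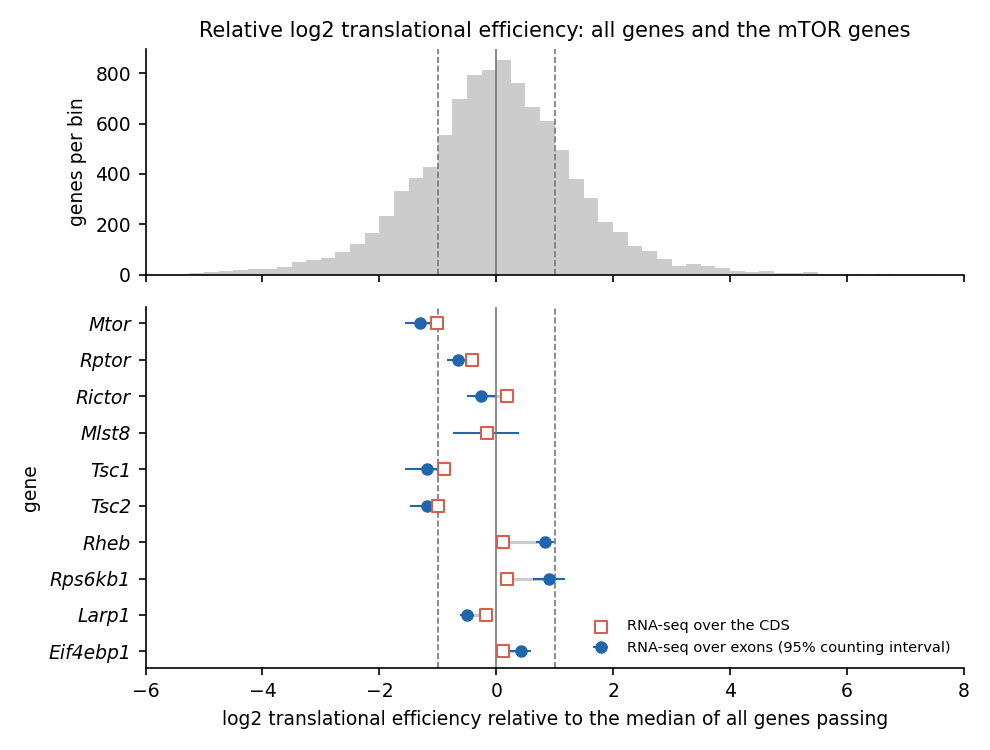
Log2 translational efficiency relative to the median of 9863 genes, as a histogram of all genes in bins of 0.25 (genes outside the axis not drawn) and as points for the 10 genes. Circles with a 95% counting interval use RNA-seq over exons and open squares RNA-seq over the CDS, dashed lines mark 2-fold, and the squares span a narrower range than the circles.

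The region over which RNA-seq was counted moved the values of *Rheb* and *Rps6kb1* most. From exons to CDS, log2 translational efficiency fell by 0.71 in *Rheb* and by 0.72 in *Rps6kb1* (to 0.19), and the highest and the lowest of the 10 genes moved closer, from 2.21 apart to 1.20 apart. Only *Mtor*, at -1.01, was then below -1, against 19.5% of all genes. In *Rheb* the RNA-seq density on the 3′UTR was 0.220 of that on the CDS in replicate 1 and 0.182 in replicate 2, and in *Rps6kb1* it was 0.380 and 0.275. Over all genes with a counted 3′UTR the median was 0.637 and 0.585. RNA-seq covered the 3′UTR more densely than the CDS in both replicates in *Rictor* (ratios of 1.33 and 1.14), *Rptor* (1.08 and 1.22) and *Larp1* (1.09 and 1.14). With RNA-seq counted over the CDS, log2 translational efficiency was higher by 0.44 in *Rictor*, 0.22 in *Rptor* and 0.33 in *Larp1*. It was also higher by 0.29 in *Mtor*, 0.28 in *Tsc1* and 0.19 in *Tsc2*, although the 3′UTR ratios of *Tsc2* were only 0.479 and 0.443. The shift was 0.02 in *Mlst8* and -0.31 in *Eif4ebp1*. Each setting was set against its own median of all genes, so every rise and fall here also holds the change of that median. In *Mtor* the RNA-seq RPKM was 9.57 and 9.75 over the CDS, against 9.65 and 9.58 over exons. In *Rptor* it was higher over the CDS (18.5 and 19.7) than over exons (17.3 and 19.2). The rise of efficiency in these genes was thus relative to the other genes. The part of 3′UTR coverage in these shifts was not tested.

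Footprints on the 3′UTRs were sparse, at 0.0207 of the CDS density in the median of the 10 genes against 0.0158 over all genes. *Tsc2* had 0 footprints on 792 nt of 3′UTR, which allows up to 3, and *Rptor* 0.0303 on 2112 nt. *Larp1* had the most, with 38.8 on 2074 nt, a density of 0.0709 of its CDS. *Mtor* had 2 on 828 nt, a density of 0.137 of its CDS that rests on few fragments.

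Footprints on the 5′UTR were denser than on the CDS in 2 of 9 mTOR genes, against 17.7% of 8944 genes, where a counted 5′UTR of 30 nt or more was required of all. These were *Rheb* and *Rps6kb1*, and *Rictor* had 22 nt counted and was left out. With 1 count added to each region *Mtor* joined them, so that 3 of the 9 were denser, against 25.9% of all genes. *Rheb* had 94.6 footprints on 125 nt of 5′UTR and 363 on 552 nt of CDS, a density ratio of 1.15 (0.912 to 1.45) that includes 1. *Rps6kb1* had 13.1 footprints on 101 nt of 5′UTR and 121 on 1835 nt of CDS, a ratio of 1.96 (1.01 to 3.47). RNA-seq density on the same 5′UTRs was lower than on the CDS, at 0.243 and 0.386 in *Rheb* and at 0.138 and 0.378 in *Rps6kb1*. In *Rheb*, 20.2% of the footprints on its UTRs and CDS lay on the 5′UTR.

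On the other 5′UTRs of the 9 genes the density ratio was below 1. *Rptor* had 19.4 on 815 nt, a ratio of 0.454 (0.264 to 0.715), and *Mtor* 1.84 on 120 nt, a ratio of 0.871 whose interval reached from 0.113 to 3.48. The lowest ratios were those of *Larp1* (0.0808, 0.0182 to 0.259) and *Eif4ebp1* (0.0750, 0.0259 to 0.190), at percentiles 17.5 and 16.8 of the 8944 genes. These 5′UTRs were also nearly without RNA-seq counts, with 0 in both replicates on the 129 nt of *Larp1* and 0.416 and 3.41 on the 60 nt of *Eif4ebp1*. The part of mRNA coverage in these low ratios was not tested.

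**Figure D3:**
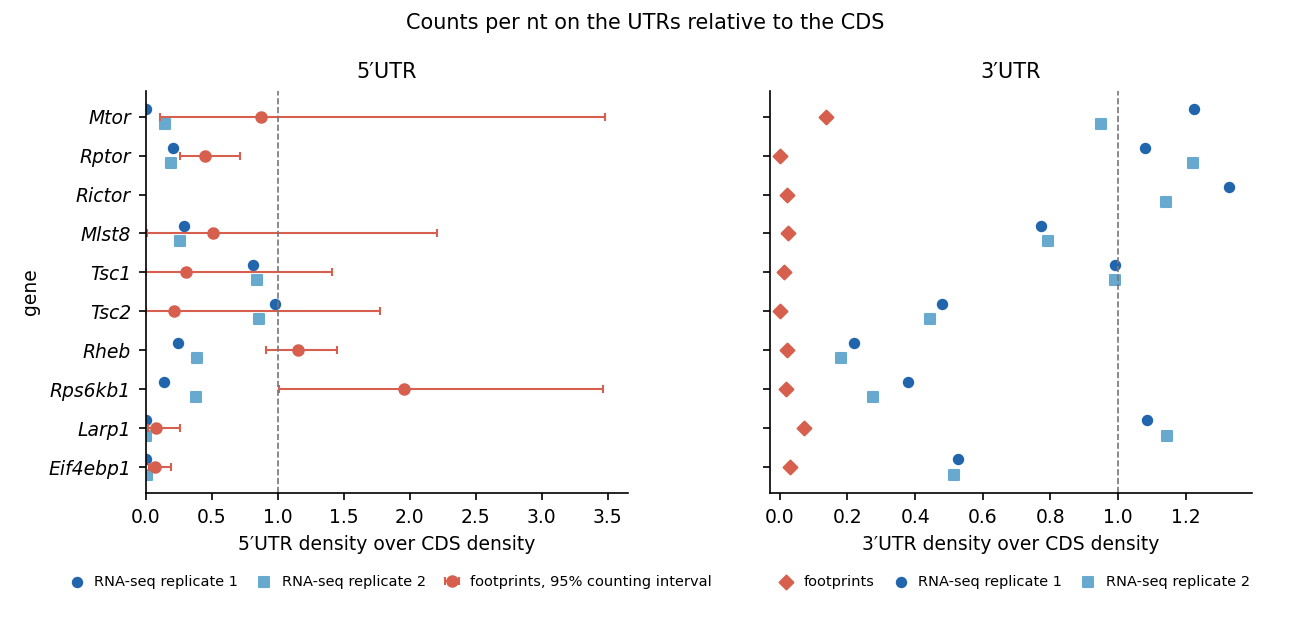
Density (counts per nt) on the 5′UTR (left) and the 3′UTR (right) divided by the density on the CDS of the same gene and library, for footprints and both RNA-seq replicates, with the 95% counting interval for footprints on the 5′UTR and a dashed line at 1. *Rheb* and *Rps6kb1* show footprint ratios above 1 on the 5′UTR with RNA-seq ratios of at most 0.386, and *Rictor* is left out on the left for its short counted 5′UTR.

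The annotated start codons of these genes are shown since upstream AUGs lie within the length of 5′UTR that was counted. Sequences are from the principal transcript of each gene in GENCODE M21, with ATG in capitals, 9 bases before and 1 base after it.
*Rheb*, 102 nt before the main start: gtgctctgtATGc
*Rheb*, 34 nt before the main start: ccgcggttaATGt
*Rheb*, main start: gccaccaagATGc
*Rps6kb1*, 41 nt before the main start: cagccggtgATGg
*Rps6kb1*, main start: tccgggcccATGa
In *Rheb* the upstream frames ran for 22 and 6 codons and ended before the main start. The upstream frame of *Rps6kb1* ran for 14 codons, and its stop codon overlapped the main ATG. A further upstream ATG of *Rheb*, 373 nt before the main start, lay outside the counted length of 125 nt. The counts give no position within a region, so footprints could not be assigned to these frames.

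Among all 10 genes, 5 had an ATG in the 5′UTR of their principal transcript, against 51.5% of 9381 genes compared. These were *Rptor*, *Mlst8*, *Tsc1*, *Rheb* and *Rps6kb1*. *Mlst8* was among them through a transcript with 595 nt of 5′UTR, and its other principal transcripts, with the same CDS length and at most 97 nt of 5′UTR, had 0 upstream ATGs. At the main start, 7 of the 10 genes had A or G at the third base before the ATG, against 86.5% of all genes, with C in *Rptor*, *Rps6kb1* and *Larp1*. A G directly after the ATG was found in 5 of the 10 genes, against 54.4%. A pyrimidine-rich translational element, searched as 9 pyrimidines with T at position 6 on the mRNA strand, was present in the 5′UTR of 3 of the 10 genes, *Rptor*, *Mlst8* and *Rheb*, against 31.0% of all genes.

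The 3 genes below -1 were all long. Of the 10 genes, 5 had a counted CDS above 3000 nt, namely *Mtor*, *Rptor*, *Rictor*, *Tsc1* and *Tsc2*, and their median log2 translational efficiency was -1.18. Among all 1374 genes with a CDS above 3000 nt the median was -0.77, and 41.7% were below -1, while 3 of the 5 long mTOR genes were. The 3331 genes with a CDS below 1000 nt had a median of 0.67, and the short mTOR genes *Eif4ebp1*, *Rheb* and *Mlst8* a median of 0.42. This split by length was chosen after the values were seen.

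Relative to genes within 1.5 times their own CDS length, an alternative also chosen after seeing the data, *Mtor* was at -0.35, *Tsc1* at -0.62 and *Tsc2* at -0.36, and 0 of the 10 genes were below -1 against 18.9% of all genes. *Rps6kb1* was at 1.13, past 2-fold above, against 17.5% of all genes, and *Eif4ebp1*, as given above, was below 0. The counted CDS covered at least 94.5% of the annotated CDS in 8 of the 10 genes, 80.3% in *Eif4ebp1* and 79.0% in *Larp1*.

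**Figure D4:**
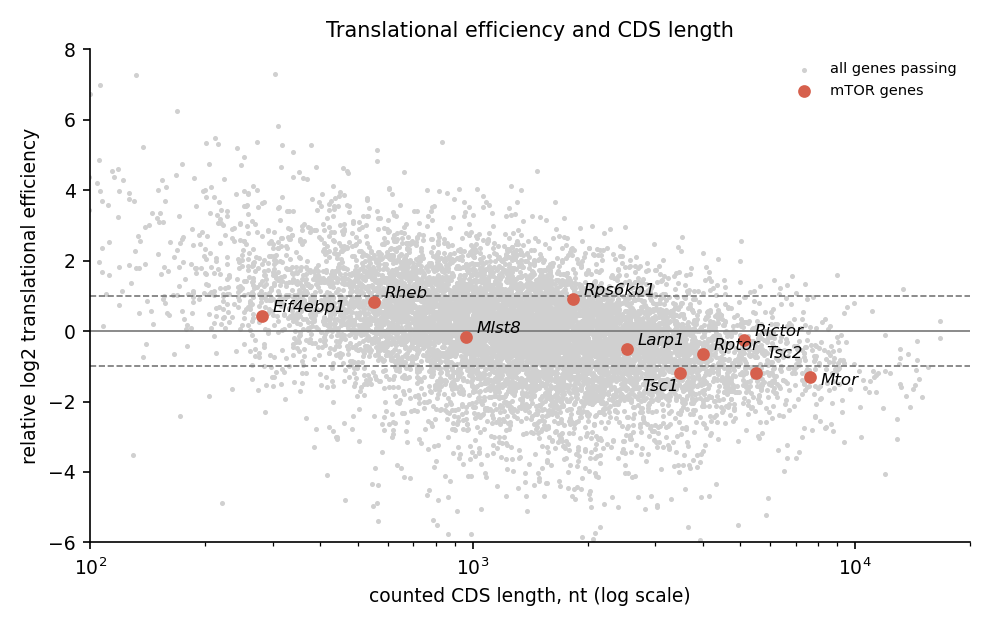
Relative log2 translational efficiency against the counted CDS length in nt (log axis) for all genes passing the filters (grey; genes outside the axes not drawn) and the 10 mTOR genes (red), with dashed lines at 2-fold. *Mtor*, *Tsc1* and *Tsc2*, between -1.30 and -1.18, lie among long genes, whose median was -0.77 above 3000 nt.

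The RNA-seq replicates gave similar mRNA levels for the 10 genes. The log2 ratio of replicate 2 over replicate 1 had a median of 0.00 and ranged from -0.24 in *Rictor* to 0.18 in *Eif4ebp1*. Over all 9863 genes its median was -0.01 and its SD 0.20, and *Rictor* lay further than 1 SD from that median.

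The genes with the most similar levels were sought for a subunit, the TOP-binding protein and the eIF4E inhibitor, by Euclidean distance over the log2 RPKM of the 3 libraries among 4829 genes with at least 100 counts in each. *Mtor* was nearest to *Mical3* (distance 0.150), *Cabin1* (0.159) and *Fryl* (0.191). *Larp1* was nearest to *Trim44* (0.096), *Rhog* (0.101) and *Atp6v0b* (0.122). *Eif4ebp1* was nearest to *Eif3g* (0.088), a subunit of the initiation factor eIF3, *Fam129b* (0.112) and *Hdgf* (0.128).

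The pathway around the 10 genes was described with a list of 77 further names. Of these, 75 were listed in the files, and *Castor1* and *Castor2* appeared under their older names *Gatsl3* and *Gatsl2*. In total 66 passed the filters, with a median log2 translational efficiency of -0.55, 20 above and 46 below the median of all genes. Of the 66, 6 were above 1 (9.09%, against 20.8% of all genes) and 19 below -1 (28.8%, against 21.1%). With RNA-seq counted over the CDS the counts were 7 above, against 18.3% of all genes, and 24 below, against 19.5%. Among the 9 genes that did not pass were *Prr5l*, *Rhebl1*, *Rragb*, *Rragd*, *Slc38a9*, *Ddit4l*, *Prkaa2* and *Grb10*, and 4 of the 9 had 0 footprints on the CDS.

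Among the other subunits and assembly factors, the mTOR inhibitor *Deptor* was highest at 1.63 ± 0.13, from an RNA-seq RPKM of only 4.02 and 3.51 and a footprint RPKM of 14.8, but it was at -0.02 without division by length. The mTORC2 subunit *Mapkap1* was lowest at -1.12 ± 0.01, with 23.3 and 23.2 for RNA-seq and 13.6 for footprints. In the TTT complex, which folds mTOR into its complexes, *Telo2* was at -0.13 and *Tti2* at -0.52. With RNA-seq over the CDS *Telo2* was at 0.09 and *Tti2* at -1.20, and without division by length they were at 0.40 and -1.15. The third TSC subunit, *Tbc1d7*, was at 0.07 and at -0.16 relative to genes of similar CDS length, and its footprint density was 2.29 times that of *Tsc1* (1.48 to 3.52) at mRNA ratios of 0.929 and 0.992.

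The lysosomal arm, which brings amino acid signals to mTORC1, had efficiencies on both sides of the median. Of the 10 Rag GTPase and Ragulator genes with their regulators, the Ragulator subunits *Lamtor4* (1.07 ± 0.08) and *Lamtor3* (1.02 ± 0.13) were above 1, a share near the 20.8% of all genes. Both calls moved with the setting. *Lamtor3*, of which 44.1% of the annotated CDS was counted, was at 0.93 against RNA-seq replicate 1 alone and at 3.26 with RNA-seq over the CDS. *Lamtor4* was at 0.15 with RNA-seq over the CDS and at 0.67 relative to the median of genes with at least 100 counts in each library. Without division by length neither was past 2-fold, at 0.43 for *Lamtor3* and 0.51 for *Lamtor4*. Relative to genes of similar CDS length both changed sign, to -0.77 for *Lamtor3* and -0.05 for *Lamtor4*. The folliculin genes *Flcn* (-1.79), *Fnip2* (-1.63) and *Fnip1* (-1.34), whose proteins act together on the Rag GTPases, were all below -1, or 3 of the 10 against 21.1% of all genes, but *Fnip1* was at -0.78 relative to genes of similar CDS length. In the GATOR and KICSTOR complexes, which restrain mTORC1 at low amino acids or counter that restraint, 3 of 11 genes were below -1, against 21.1% of all genes, among them *Wdr24* (-1.71) and *Depdc5* (-1.12), and *Seh1l*, also a nucleoporin, was highest at 0.66. Without division by length *Wdr24* was at -1.09 and *Seh1l* changed sign to -0.26. *Depdc5* was at -0.40 relative to genes of similar CDS length, at -0.94 without division by length and at -0.90 with a pseudocount of 1 RPKM.

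Sensors and upstream kinases held several of the lowest values. Of 6 amino acid and stress sensors, 4 were below -1, against 21.1% of all genes, and 3 with RNA-seq over the CDS, against 19.5%. *Sesn1*, a leucine sensor of the sestrin family, was at -3.12 ± 0.01, with an RNA-seq RPKM of 59.3 and 57.8 and a footprint RPKM of 8.51. *Sesn3*, at -2.72, rested on 4 footprints and was at -1.81 with a pseudocount of 1 RPKM. The arginine sensor gene *Gatsl3* was at -1.44 and its relative *Gatsl2* at -0.04. *Gatsl2* was at 0.23 with RNA-seq over the CDS and, without division by length, at -1.26, where *Gatsl3* was at -1.01. The stress-induced inhibitor *Ddit4* was at -1.07 ± 0.24, at -0.89 against RNA-seq replicate 1 alone and at -0.98 with RNA-seq over the CDS.

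In the growth factor and energy input, 4 of 12 genes were below -1, against 21.1% of all genes, and 0 above 1, against 20.8%. With RNA-seq over the CDS, 6 were below and 1 above, against 19.5% and 18.3%. The regulatory subunit of phosphoinositide 3-kinase *Pik3r2* was at -3.08 ± 0.13, with 40.0 and 45.0 for RNA-seq RPKM and 6.37 for footprints. The AMPK kinase *Stk11* was at -2.48 (-1.78 without division by length), the insulin receptor substrate *Irs2* at -1.53 and *Akt1* at -1.36. *Irs2* was not past 2-fold without division by length (-0.54) or relative to genes of similar CDS length (-0.92). The AMPK subunit *Prkaa1* was highest at 0.88 ± 0.24, and reached 1.06 against RNA-seq replicate 2 alone and 1.04 relative to genes of similar CDS length.

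The translation factors around *Eif4ebp1* showed the widest spread of all roles, from -3.77 to 4.0. *Eif4e*, the cap-binding protein, was at 4.0 ± 0.15, with 262 footprint RPKM against 13.9 and 11.9 RNA-seq RPKM, but only 29.8% of its annotated CDS was counted. It was at 3.20 with RNA-seq over the CDS, at 2.52 relative to genes of similar CDS length and at 1.95 without division by length. *Eif4a1*, the helicase that works with it, was at 3.58 ± 0.06, from 8600 footprints on 85.2% of its CDS. *Pdcd4*, an inhibitor of that helicase and a target of the S6 kinase, was lowest of the 66 genes at -3.77 ± 0.02, with an RNA-seq RPKM of 48.0 and 46.6 and only 22 footprints on its CDS. *Eif4b*, the helicase cofactor, had the mRNA level of 502 and 495 and was at -1.39, and *Rps6kb2* was also at -1.39, but at -0.41 without division by length. The footprint density of *Eif4ebp1* was close to that of *Eif4e* (ratio 1.12, 0.923 to 1.35), at mRNA ratios of 11.6 and 15.4.

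Among other substrates and outputs, *Ulk1*, the autophagy kinase that mTORC1 inhibits, was at -2.61 ± 0.08, with 38.6 and 41.2 for RNA-seq RPKM and 8.31 for footprints. *Sgk1*, a kinase activated through mTORC2, was at 1.5 ± 0.17, with 6.77 and 5.66 against 22.3. These were 1 gene below -1 and 1 above 1 of the 7 in this role, against 21.1% and 20.8% of all genes. The other genes were within 2-fold, but not in every setting, as 3 of them, named after their values were seen, show. *Maf1* (-0.86), a repressor of RNA polymerase III, was at -1.16 with RNA-seq over the CDS, at -1.02 without division by length and at -1.19 relative to genes of similar CDS length. *Tfeb* (-0.85), a transcription factor of lysosomal genes, was at -1.11 against RNA-seq replicate 2 alone. *Ndrg1* (-0.80), whose protein is a substrate of the *Sgk1* kinase, was at -1.07 without division by length. It was at -1.19 relative to the median of genes with at least 100 counts in each library.

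**Figure D5:**
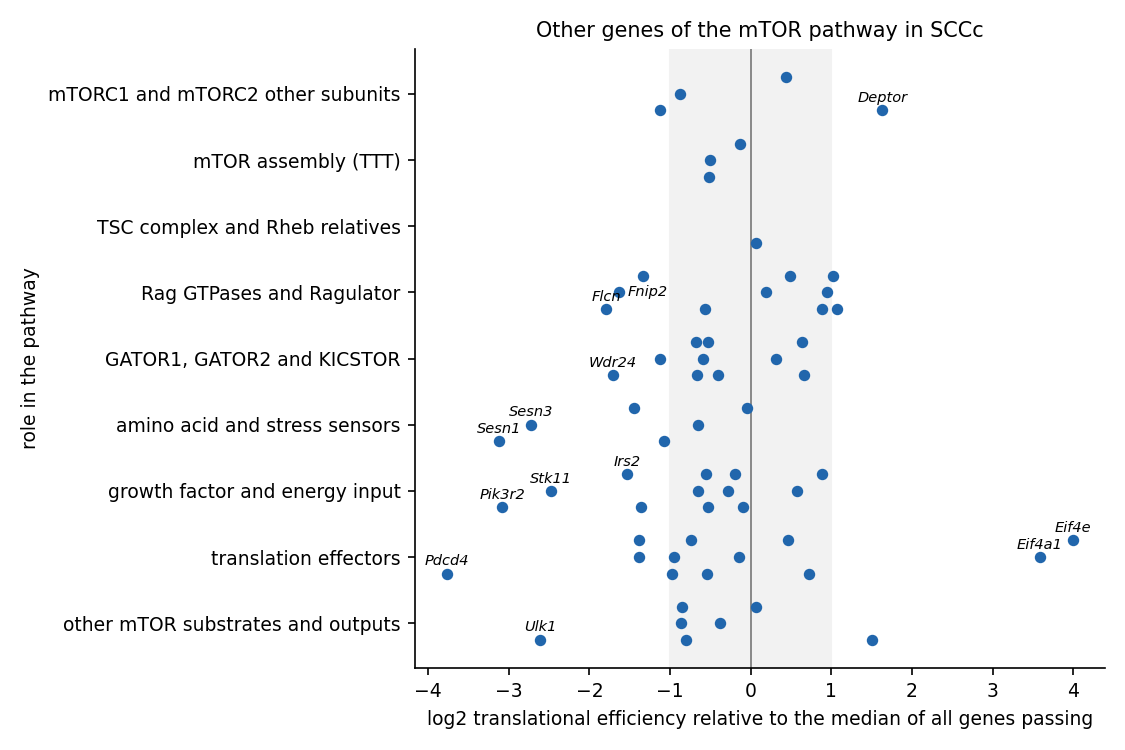
Relative log2 translational efficiency of the 66 further pathway genes that passed the filters (1 of them not drawn), by role, with the range within 2-fold in grey and genes beyond 1.5 to the low or high side named (vertical offsets within a role only separate the points). *Pdcd4* at -3.77 and *Eif4e* at 4.0 mark the extremes, both among the translation effectors.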

How the data were processed

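The authors trimmed reads, used Bowtie2 2.4.1 to take out footprints of rRNA, tRNA or mitochondrial origin, and aligned the rest to GRCm38 with STAR 2.6.1 (study's methods; versions also in the submitters' processing notes). Per gene and region (exons, CDS, 5′UTR, 3′UTR) they deposited estimated counts, made with Plastid, that need not be whole. The authors also deposited RPKM values, which use larger library totals, so RPKM was computed again from the counts and the sum of exon counts (Python 3.11.15, numpy 2.4.6, pandas 2.3.3, scipy 1.17.1). Estimated counts were rounded before DESeq2 1.42.0 computed size factors, and edgeR 4.0.16 TMM factors were an alternative. Of the gene entries, 204 join several names and 3510 have no counted CDS. Counting intervals of ratios were exact Clopper-Pearson intervals, those of levels exact Poisson intervals, and those of log2 efficiencies a normal approximation of the counting error. With 1 ribosome profiling library and 1 condition used here, no test was run.

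The members and lists were chosen with earlier results of these data known. Named genes were all 10 members; of the other pathway genes, the highest and lowest of each role among those passing the filters and every one past 2-fold; and for *Mtor*, *Larp1* and *Eif4ebp1* the 3 nearest genes. Of the pathway list, 2 genes are in the counts and medians but are not reported here one by one. The calculation was tested on simulated data. Transcripts came from GENCODE M21, taking for each gene the APPRIS principal transcript with the longest CDS and, among equals, the longest 5′UTR, and 5′ ends from RefSeq. The PRTE and TOP searches used the annotated ends only.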

Additional observations from a re-analysis of the deposited data

How the results depend on the processing

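No paired analysis was possible because 1 condition was measured and footprints came from 1 library without a replicate number. Comparison with genes of similar CDS length and the minimum of 80% counted CDS were chosen after seeing the data. With either RNA-seq replicate left out, the median of the 10 genes ranged from -0.43 to -0.37, that of the pathway genes from -0.59 to -0.55, and the number of the 10 genes above 2-fold from 0 to 1, against 20.6% to 21.1% of all genes. With RNA-seq over the CDS, the medians were -0.16 and -0.49, and 1 of the 10 genes was below 2-fold, against 19.5% of all genes. Without division by length 1 was below, *Tsc1*, against 21.1%, and *Deptor* was reversed to -0.02. When each library had to hold 100 counts or more, 7 of the 10 genes were left, with a median of -0.65, and the pathway genes were at -0.50. A pseudocount of 1 RPKM also gave the pathway genes -0.50. At 1.5-fold, 2 of the 10 genes were above, against 31.2% of all genes, and 4 below, against 31.0%. Against genes of similar CDS length, the medians were -0.21 and -0.42, with 1 of the 10 genes above and 0 below 2-fold, against 17.5% and 18.9% of all genes, and *Lamtor3* (-0.77) and *Lamtor4* (-0.05) were reversed. Where 80% or more of the annotated CDS was counted, the medians were -0.20 for 9 of the 10 genes, without *Larp1*, and -0.59. With 1 count added to each region, 3 of the 9 genes with 30 nt or more of 5′UTR had denser 5′UTR than CDS footprints, the third being *Mtor*, against 25.9% of all genes. The filter changes act through the genes left, and the cause of the other changes was not tested. The deposited RPKM as filter and a filter on counts above 0 changed no median by more than 0.02. DESeq2 and TMM factors scale all genes of a library alike, which the centring on all genes removes, so they test nothing here. Of the single-gene values under the other settings, 211 moved by less than the spread between RNA-seq replicates, 164 by more without a call changing sign, and 3 reversed. Leaving out 1 of the 2 RNA-seq replicates moves a value by less than that spread by construction, unless the spread is near 0. Such values among the 211 therefore test nothing. Depth limits *Mlst8* most among the 10 genes, at 25.8 footprints.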
